A study of Mus musculus with 4 samples.

Results

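The RNA helicases of the DEAD box and DEAH box families were examined as RNA targets of a related helicase, DHX9. The members were all protein-coding mouse genes whose symbol begins with Ddx or Dhx and a digit, with Dhx9 itself left out. This gave 52 genes of 21900 protein-coding genes in the RefSeq table of assembly GRCm38.p6, which is the assembly behind build mm10. Of these, 37 were DEAD box genes (Ddx symbols) and 15 were DEAH box genes (Dhx symbols). They held 292 of the 59563 peaks in the deposited list, or 0.490%.

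The data came from FLASH, a form of CLIP-seq that fixes RNA to its bound proteins with ultraviolet light, pulls out 1 protein and sequences the RNA fragments that come with it. The cells were WT26, a male mouse embryonic stem (ES) cell line of C57BL/6x129sV background that grows without feeder cells and was kept in serum with leukemia inhibitory factor. In 2 samples the pulldown used an antibody against DHX9 (labelled DHX9-Rb) and in 2 samples it used control IgG (labelled IgG-Rb), each with biological replicates A and B. DHX9 and IgG material was barcoded and mixed before the RNA was isolated, per the labels' protocols. All 4 samples came from the same line, so every value below describes 1 cell line.

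The list holds 1 set of peaks for the whole series, called with PEAKachu per the file. It gives where each peak begins and ends and on which strand. None of the 59563 peaks has a score, so the list gives no height, fold or p-value for a peak, and the sequencing depth is unknown. No value can be given per replicate or for IgG alone, and how the IgG samples entered the peak calling is not given in the sources used here. A gene without a peak is therefore a gene in which no peak was called at an unknown depth. The list gives no amount of RNA, so a difference between genes in binding and in the RNA present cannot be told apart. The ES cell markers Pou5f1, Nanog, Sox2, Esrrb and Zfp42 all held peaks (6 to 64). Of 5 markers of differentiated lineages only Tubb3 held any (7), and of 5 fibroblast markers only Fn1 did (63), with Col1a1, Col1a2, Thy1 and Pdgfrb at 0.

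DEAD and DEAH box proteins use ATP to open RNA duplexes or to strip proteins from RNA, and are named after the letters of a conserved catalytic motif. DEAD box proteins open short duplexes locally, while DEAH box proteins, the group DHX9 belongs to, move along 1 strand. The DEAH class includes the helicases that drive the later steps of splicing, and many DEAD box proteins work in the nucleolus on ribosomal RNA. A smaller set, with RIG-I (gene Ddx58) as the best known, senses viral RNA. The grouping here follows the symbol and not the protein motif, since protein sequences were not used here.

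The sequences that follow are the stretches of these genes that bear on the results and can be read from RefSeq tables of build GRCm38.p6. The first set shows mature microRNAs encoded inside helicase genes, because peaks covered the hairpins of 3 of the 4 microRNA genes for which a sequence was found. Capitals mark the seed, bases 2 to 8.
mmu-miR-3064-5p: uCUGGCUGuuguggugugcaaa
mmu-miR-3064-3p: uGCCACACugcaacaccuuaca
mmu-miR-6975-5p: gCUGGGGAgaaagggguuuggca
mmu-miR-6975-3p: uCUCUCCUuucuccuccuag
mmu-miR-8094: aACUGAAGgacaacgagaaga
mmu-miR-3473d: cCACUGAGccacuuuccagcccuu
The 6 mature sequences had 6 different seeds.

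The second set shows peaks at annotated transcript starts. For Ddx17, the 250 bases before a start inside the gene are given (chr15:79532918-79533167, minus strand), with the 220 bases that lay in a peak in capitals.
Ddx17: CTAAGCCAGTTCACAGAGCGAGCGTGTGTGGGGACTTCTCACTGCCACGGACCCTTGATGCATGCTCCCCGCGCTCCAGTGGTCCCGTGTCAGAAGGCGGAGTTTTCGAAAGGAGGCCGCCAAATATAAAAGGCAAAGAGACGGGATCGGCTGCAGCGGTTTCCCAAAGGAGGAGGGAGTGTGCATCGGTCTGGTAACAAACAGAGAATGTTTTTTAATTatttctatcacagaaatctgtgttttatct
For Ddx50, the whole of 1 peak is given (chr10:62649745-62649866, minus strand, 122 bases), with the 9 bases from an annotated internal start on in capitals.
Ddx50: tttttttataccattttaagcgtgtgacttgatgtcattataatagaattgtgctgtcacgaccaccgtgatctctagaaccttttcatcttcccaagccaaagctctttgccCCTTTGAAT
For Ddx46, the first 30 bases from the annotated start are given (chr13:55634999-55635028, plus strand), with the 16 bases inside the first peak in capitals.
Ddx46: ggcaccagcacatcCTGTTTTCGTTGGCCA

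DHX9 peaks were found in most helicase genes, and their number differed widely from gene to gene. At least 1 peak had its midpoint in the gene body of 34 of 52 members (65.4%, 95% Wilson interval 51.8 to 76.8%), against 22.8% of all protein-coding genes. The interval covers counting error only. Protein-coding genes in the same length deciles held a peak in 28.8% of cases, which would be 15.0 of 52. A threshold of at least 3 peaks was met by 25 members (48.1%), against 14.8% of all protein-coding genes, and one of at least 10 peaks by 12 members, against 7.27%. Members with a peak had a median of 7 peaks, and protein-coding genes with a peak a median of 5. Expression was not matched, and its part in the difference was not tested.

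**Figure D1:**
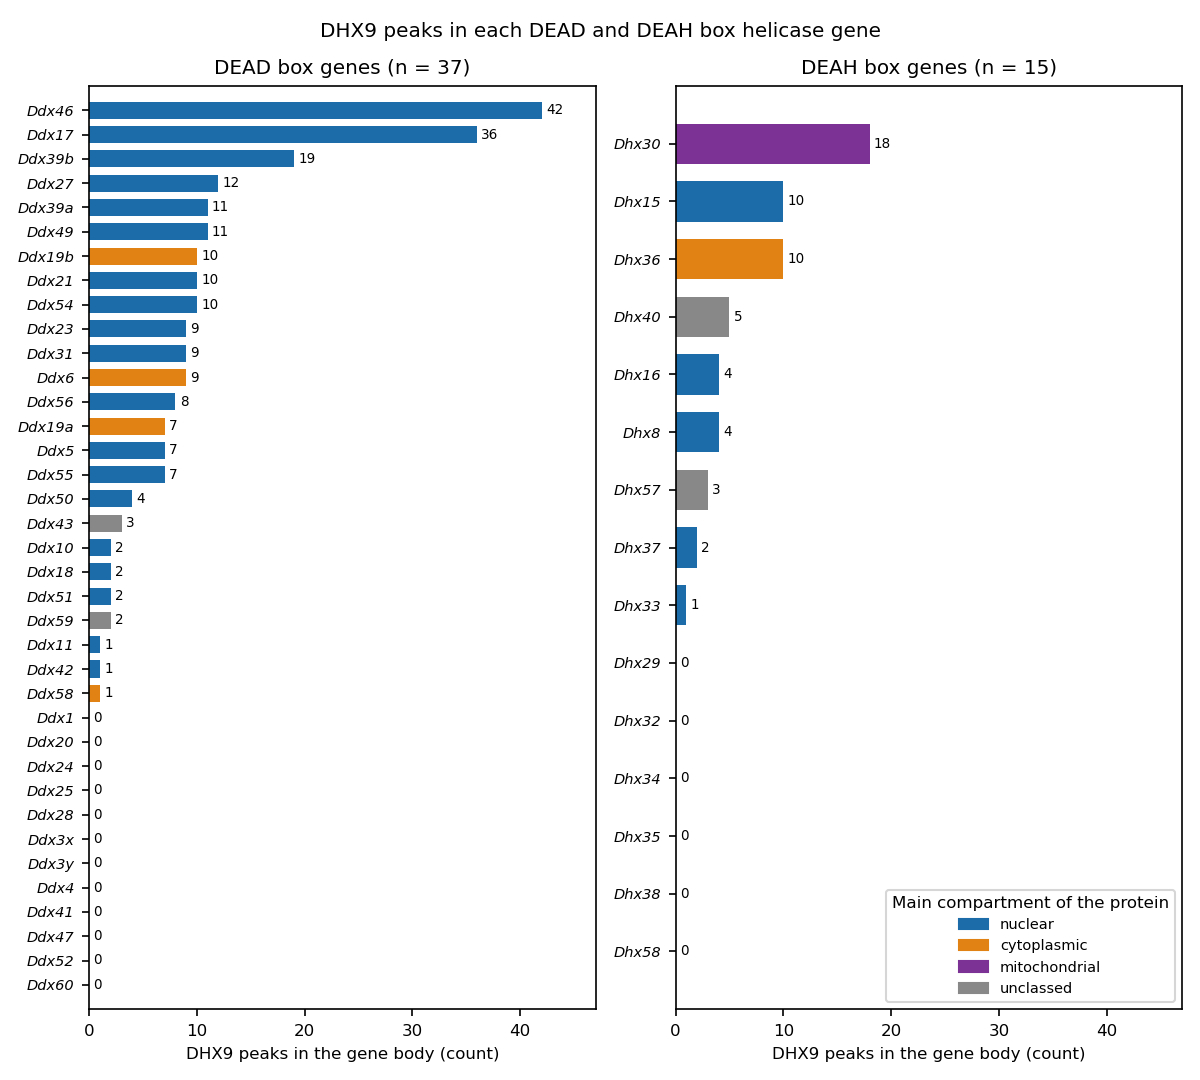
Each bar is the number of DHX9 peaks (x axis, count) with midpoint in 1 helicase gene (y axis), with DEAD box genes on the left, DEAH box genes on the right and colours for the main compartment of the protein. Ddx46 (42) and Ddx17 (36) stand above the rest, Dhx30 (18) leads the DEAH box genes, and 12 DEAD and 6 DEAH box genes have 0.

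The 4 leading members were 3 genes of nuclear helicases and 1 of a mitochondrial helicase. Ddx46, whose protein acts with the U2 snRNP when the spliceosome forms, held 42 peaks over 46.3 kb of chromosome 13 (55634975 to 55681267), all on the plus strand, which is the gene's own. Ddx17, a cofactor of transcription, splicing and microRNA processing, held 36 over 19.1 kb of chromosome 15 (79527696 to 79546764), all on its minus strand. Ddx39b, which acts in splicing and in the export of mRNA, held 19 over 11.96 kb of chromosome 17 (35241746 to 35253707). Dhx30, whose protein serves the mitochondrial ribosome, was the highest DEAH box gene with 18 over 33.3 kb of chromosome 9 (110084319 to 110117616). These 4 genes held 115 of the 292 peaks (39.4%). A further 8 members held 10 to 12 peaks: Ddx27, Ddx39a, Ddx49, Ddx19b, Ddx21, Ddx54, Dhx15 and Dhx36. Ddx27 lies on chromosome 2 (167015313 to 167034945), Ddx39a on chromosome 8 (83715177 to 83726904) and Ddx49 on chromosome 8 (70292866 to 70302471). Ddx19b, for a helicase of mRNA export at the nuclear pore, lies on chromosome 8 (111003186 to 111031751), and Ddx21 on chromosome 10 (62580247 to 62602298). Ddx54 lies on chromosome 5 (120613082 to 120628592), Dhx15 on chromosome 5 (52150203 to 52190546) and Dhx36 on chromosome 3 (62468015 to 62507034). Of the members with fewer peaks, Ddx6, a repressor of translation in P-bodies, held 9, Dhx40 held 5, Dhx57 held 3 and Ddx59 held 2. In all, 13 genes held 3 to 9 peaks and 9 genes held 1 or 2. Dhx9 held 45 peaks, or 1.41 per kb, above Ddx46 in count and below Ddx17 and Ddx39b in density.

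Peaks lay on the strand of the helicase gene. In 30 members with a peak and a known strand, 260 of 262 peaks (99.2%) were on the gene's strand, against 97.99% in all protein-coding genes. Both exceptions were in Ddx19b, within the part that overlaps the oppositely transcribed Aars gene.

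DEAD box genes with a peak held more peaks per kb than DEAH box genes, while the shares of genes with a peak could not be separated. Of 37 DEAD box genes 25 had a peak (67.6%, 51.5 to 80.4%), against 9 of 15 DEAH box genes (60%, 35.7 to 80.2%). The intervals overlap widely, and the difference of 7.57 percentage points turned to -3.24 when peaks narrower than 196 bases, the median of the list, were left out. Genes of the same length deciles gave 27.6% for the DEAD set and 31.8% for the DEAH set. With at least 3 peaks the shares were 48.6% and 46.7%. DEAD box genes with a peak had a median of 8 peaks and 0.350 peaks per kb, and DEAH box genes with a peak a median of 4 peaks and 0.128 per kb. All protein-coding genes with a peak had a median of 0.176 per kb. DEAD box genes were shorter, with a median of 19.6 kb for the 37 genes against 34.4 kb for the 15 DEAH box genes. Among genes with a peak the median lengths were 22.1 kb (DEAD) and 34.4 kb (DEAH). Density was not matched for length. The difference in density was not tested, since genes of 1 list are not replicates.

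**Figure D2:**
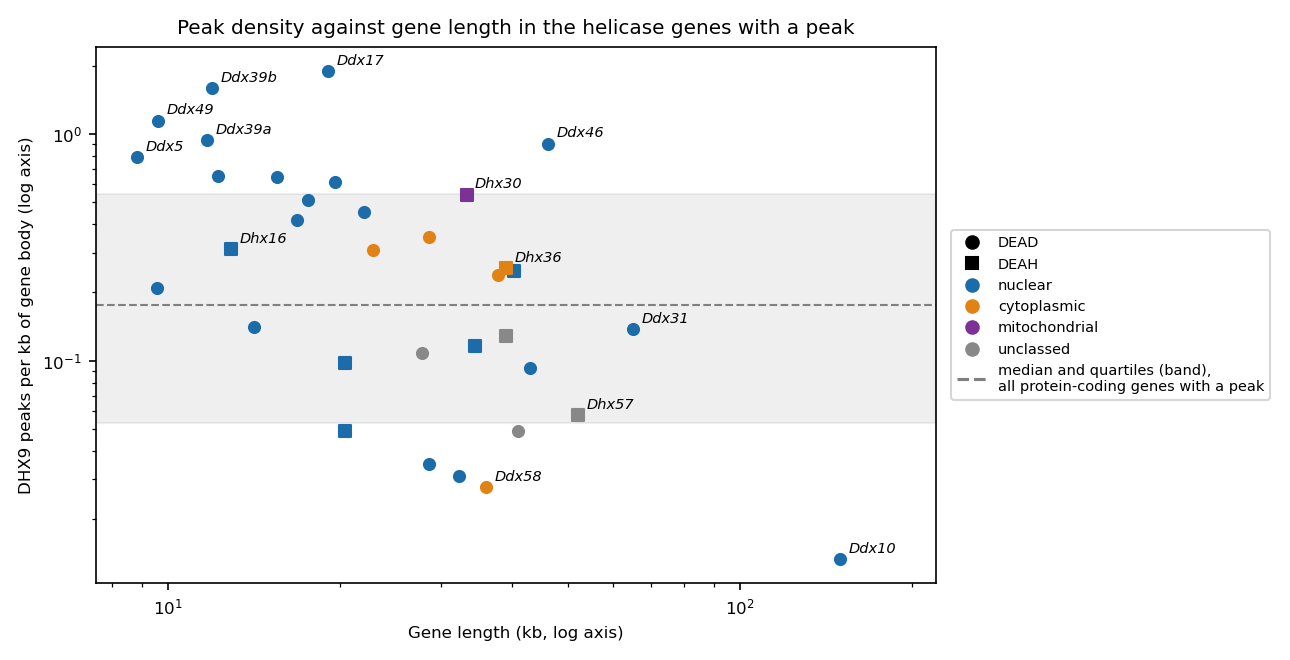
Peaks per kb of gene body (y axis, log) are plotted against gene length (x axis, kb, log) for the 34 members with a peak, with circles for DEAD and squares for DEAH box genes; the dashed line and band are the median and quartiles of all protein-coding genes with a peak. The 9 genes above the band are nuclear DEAD box genes, from Ddx27 at 0.61 to Ddx17 at 1.89 per kb. That class makes up 19 of the 34 genes shown.

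Genes of nuclear helicases made up most members with a peak (24 of 34) and most of all members (30 of 52). They stood at both ends of the density range. Of the 34 members with a peak, 9 (26.5%) lay above the upper quartile of all protein-coding genes with a peak (0.5413 per kb), about the share that a quartile sets aside. All 9 were DEAD box genes of nuclear proteins, a class that held 19 of the 34. These 19 genes had a median length of 17.55 kb, against 25.3 kb for all 34, and density was not matched for length. The mitochondrial DEAH box gene Dhx30 lay just under the quartile at 0.5406 per kb. Ddx17 had 1.89 peaks per kb, Ddx39b 1.59 and Ddx49, a nucleolar factor for ribosomal RNA, 1.15. Ddx39a, a close relative of Ddx39b, had 0.94, Ddx46 0.91 and Ddx5, the partner and relative of Ddx17, 0.79. The nucleolar genes Ddx56, Ddx54 and Ddx27 followed at 0.653, 0.645 and 0.611. Closely spaced peaks were part of these values: with peaks within 50 bases merged, Ddx17 had 21 peaks and 1.10 per kb and stood below Ddx39b with 16 peaks and 1.34 per kb. Peaks covered 50.1% of the bases of Ddx17 and 41.7% of those of Ddx39b, against a median of 5.35% over the members with a peak. At the low end, 6 of the 34 lay below the lower quartile of 0.0534 per kb (Ddx10, Ddx11, Ddx42, Ddx58, Ddx59 and Dhx33). Of these 6, 4 were nuclear, near the share of nuclear genes among all 34. Ddx10 was lowest at 0.0134, with 2 peaks in 149.7 kb.

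Genes of nuclear helicases held a peak more often than those of cytoplasmic helicases. The classes follow where the protein mainly works, from general knowledge of each protein, and leave out 2 mitochondrial and 7 unclassed members. Several of the proteins move between compartments, so the classes are approximate, and they were chosen with earlier results of these data known. The mRNA export gene Ddx19b and its relative Ddx19a were counted as cytoplasmic, whereas the export gene Ddx39b was counted as nuclear. A peak was present in 24 of 30 nuclear members (80%, 62.7 to 90.5%), against 5 of 13 cytoplasmic members (38.5%, 17.7 to 64.5%). Genes of the same length deciles gave 27.6% for the nuclear and 30.9% for the cytoplasmic set, and the cytoplasmic interval includes the second value. The order was the same within both families: 19 of 23 nuclear against 4 of 9 cytoplasmic DEAD box genes, and 5 of 7 nuclear against 1 of 4 cytoplasmic DEAH box genes. The 2 intervals overlap slightly, and no test over samples was possible. With 3 cytoplasmic genes left out (the germ cell genes Ddx4 and Ddx25 and the Y-linked Ddx3y), 5 of 10 remained with a peak (50%). Median density among genes with a peak was 0.363 per kb in nuclear and 0.256 per kb in cytoplasmic members. The order of densities held in DEAD box genes (0.513 nuclear and 0.272 cytoplasmic). It was the opposite in DEAH box genes (0.116 nuclear, and 0.256 for the single cytoplasmic gene with a peak, Dhx36).

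**Figure D3:**
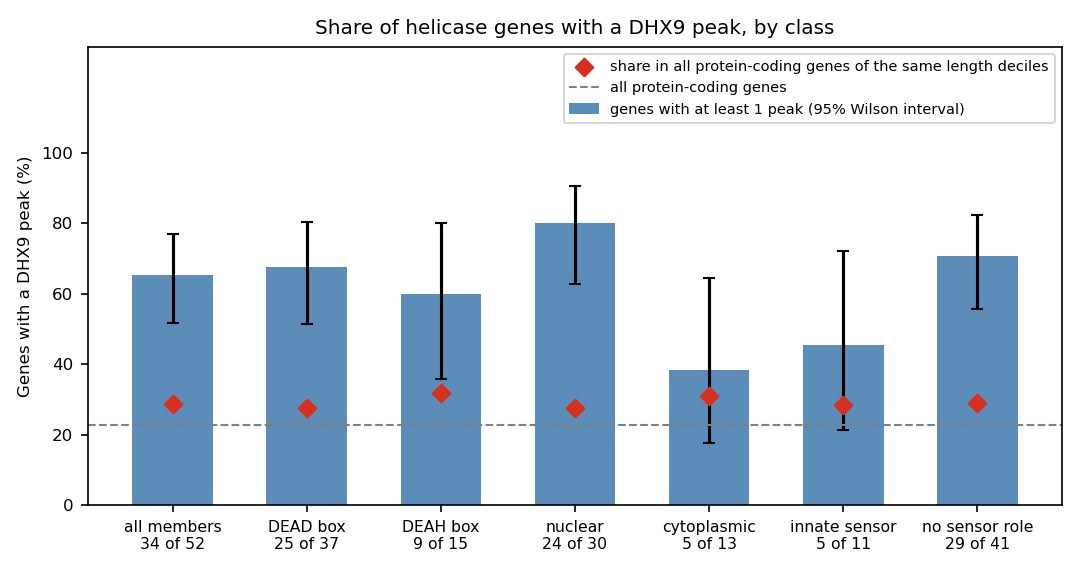
Bars give the share of genes with at least 1 DHX9 peak (y axis, %) in each class of helicase genes, error bars the 95% Wilson interval, diamonds the share in all protein-coding genes of the same length deciles and the dashed line all protein-coding genes (22.8%). The nuclear bar is highest at 80%, and the intervals of the cytoplasmic (38.5%) and innate sensor (45.5%) bars reach below the dashed line.

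Within the nucleus, spliceosome and export helicases held peaks in 8 of 11 cases (72.7%), against 28.9% in genes of the same length deciles, and nucleolar helicases in 13 of 16 (81.3%), against 27.1%. Of the spliceosomal DEAD box genes, Ddx23, which acts with the U5 snRNP, held 9 peaks and Ddx42, a partner of SF3b, held 1. The DEAH box helicases of the splicing cycle differed: Dhx15, which takes the spent spliceosome apart, held 10 peaks, and Dhx8 and Dhx16, which act at release of the mRNA and before the first catalytic step, held 4 each. Dhx38, which acts between the catalytic steps, held none, nor did Dhx35 and Ddx41. Among nucleolar genes Ddx27 (12), Ddx49 (11), Ddx21 (10), Ddx54 (10), Ddx31 (9), Ddx56 (8) and Ddx55 (7) led. Ddx50 held 4, Ddx10, Ddx18, Ddx51 and Dhx37 held 2 each and Dhx33 held 1, and Ddx24, Ddx47 and Ddx52 held none. Ddx11, a DNA helicase of sister chromatid cohesion, held 1.

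Of 11 members with a reported sensing role 5 held a peak (45.5%, 21.3 to 72.0%), against 28.5% in genes of the same length deciles, a value inside that interval, and 29 of 41 members (70.7%, 55.5 to 82.4%) with no such role. Ddx58, which encodes RIG-I, held 1 peak of 246 bases (chromosome 4, 40215381 to 40215626), and Dhx58, which encodes its relative LGP2, held none. Dhx36, an unwinder of G-quadruplexes, Dhx15 and Ddx21 held 10 peaks each, and Dhx33 held 1. No peak was called in Ddx1, Ddx3x, Ddx41, Ddx60 and Dhx29. The members with 10 peaks also have general roles in RNA metabolism. Of 12 partner genes in RNA sensing 3 held peaks (25%), near the 22.8% of all protein-coding genes: Trim25, the ubiquitin ligase of RIG-I, with 26, the editing enzyme gene Adar with 9 and Ticam1, the adaptor of TLR3, with 3. The other 9 had none.

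Most related helicase pairs differed in peak number, and unrelated pairs were not compared. Ddx17 had 36 peaks and Ddx5 had 7, over 19.1 and 8.83 kb, so that density was 1.89 and 0.79 per kb. Ddx39b had 19 and Ddx39a 11, over similar lengths of 11.96 and 11.7 kb. Ddx21 and Ddx50, which lie 13.5 kb apart on chromosome 10, had 10 and 4, at 0.45 and 0.09 per kb. Ddx19b and Ddx19a, 5.36 kb apart on chromosome 8, had 10 and 7, or 0.35 and 0.31 per kb. Of these, 8 and 5 lay in no other gene. Ddx3x, an abundant translation factor gene of the X chromosome, and its Y-linked copy Ddx3y both had none. The members of a pair share sequence, most of all Ddx3x with Ddx3y and Ddx19a with Ddx19b, and how reads that match both were placed is not given in the sources used here, so the values of these genes are uncertain. Of the germ cell genes Ddx43 had 3 peaks and Ddx4, the vasa gene, and Ddx25 had none.

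In full, the 18 members without a peak were Ddx1, Ddx3x, Ddx3y, Ddx4, Ddx20, Ddx24, Ddx25, Ddx28, Ddx41, Ddx47, Ddx52, Ddx60, Dhx29, Dhx32, Dhx34, Dhx35, Dhx38 and Dhx58. Their median length was 19.4 kb, against 22.4 kb for all 52 members. The longest, Ddx60, an interferon-induced antiviral helicase gene, spans 110 kb. A peak of 168 bases lay over the start window of Ddx28 (chromosome 8, 106011557 to 106011724), but on the opposite strand and outside the gene.

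Peaks were more frequent near the start than near the end of the gene body, in the helicase genes as in all protein-coding genes. In the 20 members with at least 5 peaks on the gene's strand, on average 34.4% of a gene's peaks lay in the first 20% of the gene body and 9.74% in the last 20%. All 2499 protein-coding genes with at least 5 such peaks gave 26.1% and 12.7%. The first part held more than the last in 12 of the 20 members (60%), against 59.4% of all such genes, so the number of genes that lean this way was at the background. The difference of 24.6 points was 6.04 when the first and last 10% were compared, where all genes gave 7.06. With peaks pooled over the genes of each set it was 17.8 points in the members and 16.1 points in all genes. In the 14 nuclear members the first part held 37.8% and the last 10.4%, and in the 4 cytoplasmic members 9.92% and 12.2%. These 4 genes were Ddx6, Ddx19a, Ddx19b and Dhx36. The median position of a gene's peaks, taken over genes, was 25.5% of the gene body in nuclear and 63.1% in cytoplasmic members. It was 39.9% in the 2499 protein-coding genes. With 4 cytoplasmic genes this contrast is a description only.

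**Figure D4:**
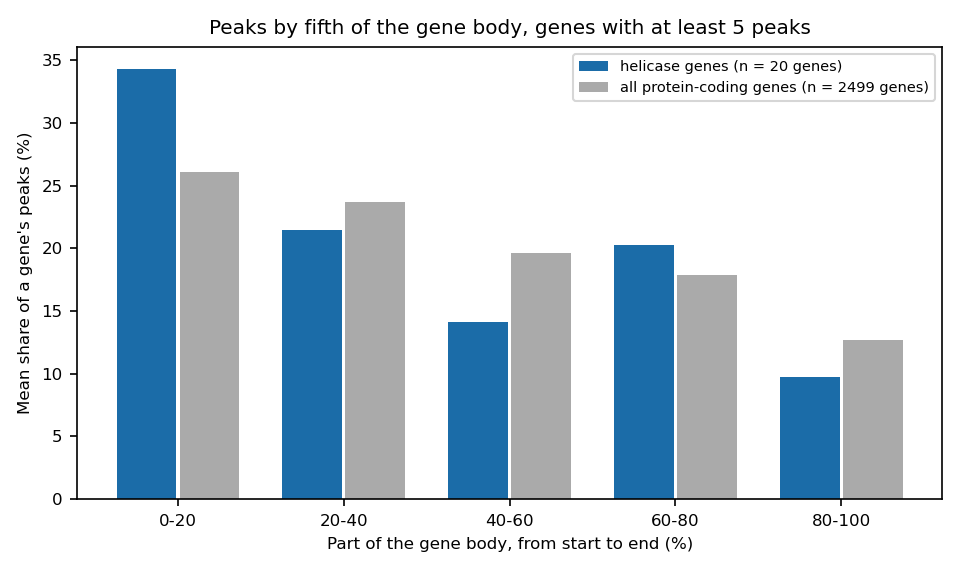
Bars give the mean share of a gene's peaks (y axis, %) in each 20% of the gene body (x axis, from start to end), for the 20 helicase genes and for all 2499 protein-coding genes with at least 5 peaks. The helicase genes have 34.4% in the first 20% and 9.74% in the last 20%, and all genes 26.1% and 12.7%.

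The mean hides several layouts, which the map of peaks along each gene shows. In 8 of the 25 members with at least 3 peaks, all peaks lay in the first 50% of the gene body (32%, against 17.9% of all such protein-coding genes), namely Ddx23, Ddx31, Ddx39a, Ddx50, Ddx54, Ddx55, Dhx8 and Dhx15. Ddx39a had 11 peaks between 0.38 and 4.29 kb of an 11.7 kb gene, and Ddx54 had 10 between 0.63 and 4.69 kb of 15.5 kb. In Dhx16, Dhx36 and Dhx57 all peaks lay in the last 50% (12%, against 9.61%). The peaks of 5 members spanned at most 20% of the gene body (20%, against 17.4%). Among these were Ddx31, with 9 peaks within 5.24 kb of a 65.2 kb gene, and Dhx57, with 3 within 1.21 kb of 52.2 kb. In 8 members they spanned over 75% (32%, against 31.6%), with Ddx39b (97.99%), Ddx17 (96.9%) and Ddx46 (88.3%) the widest. The direction for Ddx6, Ddx11, Ddx23 and Ddx39a was taken from the peaks, as their strand was not in the table of starts.

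**Figure D5:**
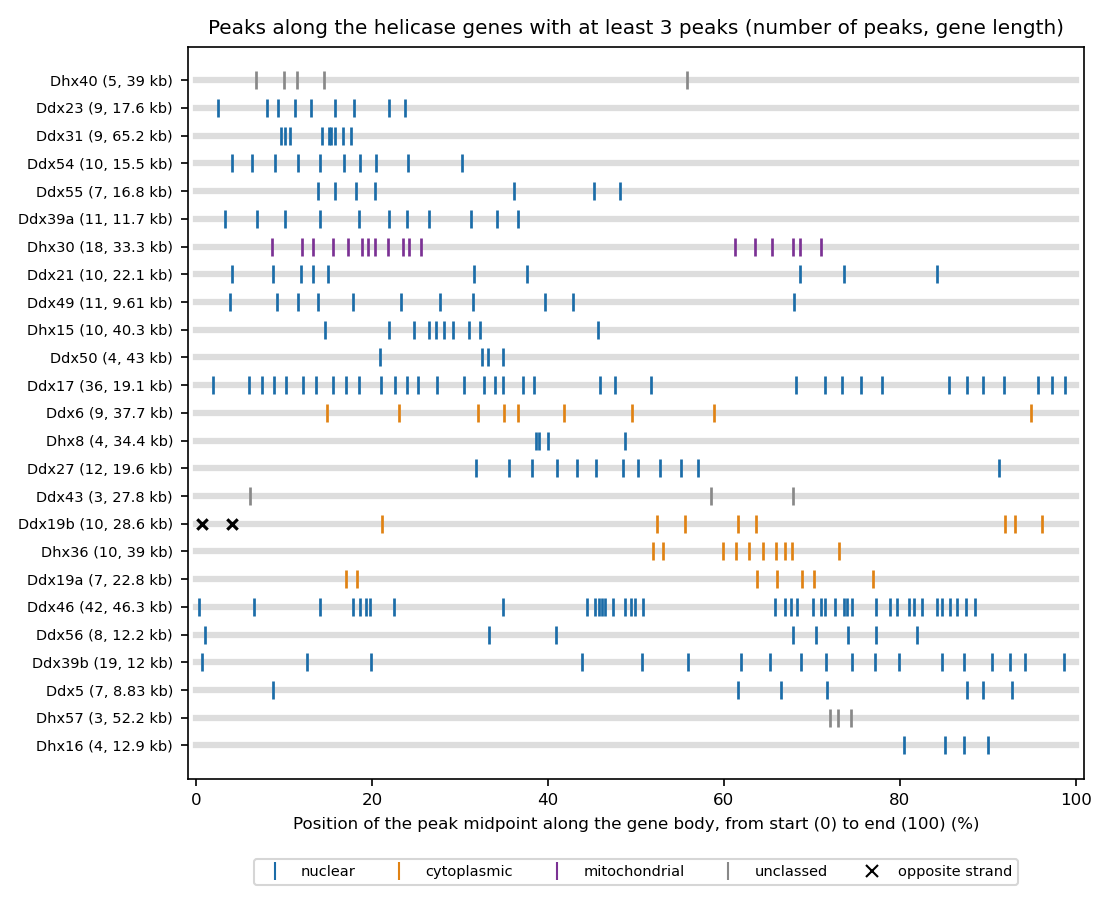
Each tick is the midpoint of 1 peak along the gene body (x axis, % from start to end) in the 25 members with at least 3 peaks (1 line each, ordered by median position; number of peaks and gene length in brackets), coloured by compartment, with crosses for the 2 peaks on the opposite strand in Ddx19b. Ddx31 (span 8.04%) and Dhx57 (2.32%) have tight runs, Dhx30 has 2 separate runs, and the peaks of Ddx17, Ddx39b and Ddx46 reach over 75% of the gene with gaps between runs.

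Several of the leading genes showed separate runs. Runs were parted here where neighbouring peaks lay over 2 kb apart. How often other protein-coding genes show such runs was not counted, so they cannot be called particular to these genes. Dhx30 had 12 peaks from 2.86 to 8.52 kb and 6 from 20.4 to 23.7 kb after the start, with none between. Ddx46 had 23 of its 42 peaks between 30.5 and 41.0 kb, 10 between 20.5 and 23.5 kb and 6 between 6.51 and 10.4 kb, with 3 single peaks. Ddx17 had 24 peaks up to 9.86 kb and 12 from 13.01 kb on. Dhx36 held all 10 peaks between 20.3 and 28.5 kb of 39.0 kb, with 7 between 23.4 and 26.4 kb. Dhx15 had 8 of its 10 between 8.82 and 13.02 kb. Both peaks of Dhx37, which acts on the small ribosomal subunit precursor, lay in the last 20% of the gene. A further 5 peaks on its strand, in no annotated gene, lay between 0.057 and 4.74 kb past its end, 1 of them crossing the end. No other member of known strand had such peaks in the 5 kb past its end, while Dhx9, left out of the members, had 2. The share of all protein-coding genes with such peaks was not counted.

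Windows from 250 bases before to 50 bases after each annotated start held a peak on the gene's strand in 5 of 30 members with a peak and such a window (16.7%), against 8.49% of all such genes. The members were Ddx5, Ddx17, Ddx39b, Ddx46 and Ddx50. In Ddx46 the first peak began 14 bases after the start and ran for 183 bases (the capitals of the Ddx46 sequence above). In Ddx39b a peak of 68 bases began 43 bases after the start. In Ddx5, Ddx17 and Ddx50 the start was internal, at 691, 13847 and 9011 bases from the outer start of the gene, so the peaks there also lie inside longer transcripts. The Ddx50 peak was 38.5% G and C and the covered bases of the Ddx17 stretch 54.1%. All 250 bases of the Ddx17 stretch were 50.8% G and C. The 250 bases before all annotated starts had a median of 52.4% (quartiles 45.2 and 61.2%), and only the whole Ddx17 stretch is of the same kind.

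Peaks covered 3 of the 5 microRNA genes inside helicase genes. The Mir3064 hairpin in Ddx5 (chromosome 11, 106782693 to 106782759) lay wholly within a peak of 330 bases. In Ddx39b, the Mir6975 hairpin (chromosome 17, 35244075 to 35244135) lay within a peak of 184 bases and the Mir8094 hairpin (chromosome 17, 35251289 to 35251405) within one of 224 bases. In all 3 the peak was on the strand of the hairpin, which is also that of the host. Of 259 hairpins inside protein-coding genes with a peak, 13.5% were overlapped by a peak on their strand. The 3 peaks were wider than the hairpins of 67, 61 and 117 bases, and their hosts are among the denser members, so RNA of the hairpin and of the host cannot be told apart. Mir3473d in Ddx19b and Mir1668 in Ddx39a lay outside peaks, as did 2 snoRNA genes in Ddx39b and 1 snRNA gene in Dhx33.

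Peaks in helicase genes were close in width to those elsewhere. Their median width was 205 bases (quartiles 152 and 284), against 197 bases (147 and 268) for peaks in all protein-coding genes. DEAD box genes had a median of 211 bases over 235 peaks and DEAH box genes 187 bases over 57 peaks. A peak as wide as the median of the list or wider was held by 30 of 52 members (57.7%), against 17.1% of all protein-coding genes. For peaks of any width the shares were 65.4% and 22.8%. The number of peaks of at least the median width was 29 of 36 in Ddx17 and 9 of 11 in Ddx39a. It was 2 of 9 in Ddx31 and 3 of 10 in Dhx15, all genes picked with these values in view.

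Other RNA helicases and helper proteins of DEAH helicases gave shares near that of the members. Both lists were chosen with earlier results of these data known, and neither gene length nor expression was matched. Of 19 RNA helicase genes outside the naming rule 11 held peaks (57.9%), against 22.8% of all protein-coding genes. Among them Helz held 39, Upf1, the helicase of nonsense-mediated decay, held 25, and Mov10, a helicase that restrains retrotransposons, held 19. Of 17 genes for G-patch proteins, several of which activate DEAH helicases, 11 held peaks (64.7%), against the same 22.8%. Gpatch8 led with 50, followed by Rbm5 with 17, Sugp1 with 15 and Gpatch4 with 7.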

How the data were processed

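Peaks of 2 DHX9 and 2 IgG pulldowns from mouse ES cells were deposited by the authors as 1 list, called with PEAKachu per the file's source column (version and parameters: not given in the sources used here). The submitters' processing notes name Bowtie2 2.2.6 and the builds hg19 and mm10, with no roles given; coordinates were read as mm10. A peak was assigned to each gene of RefSeq GRCm38.p6 that spans its midpoint, whatever the strand. Peaks were not split into exons and introns. Gene strand came from the RefSeq table of transcript starts for 46 members and otherwise from the strand of most peaks. Shares are of genes with at least 1 peak, with 95% Wilson intervals, beside all protein-coding genes and those of the same length decile. With 1 unscored list, no test over samples was possible. Members, classes and partner lists were chosen with earlier results of these data known. All members were accounted for; described in full were the 10 with the most peaks, the 6 densest with at least 3 peaks, sensors, related pairs and germ cell genes. Genes named for runs, start windows, width or microRNAs, and others outside that rule, were picked with their values in view. The value of 1 gene of the partner lists is not reported here. The planned search for the catalytic motif was not run, as it needs protein sequences. Assignment, merging and positions were tested on simulated data. Python 3.11.15, numpy 2.4.6, pandas 2.3.3 and scipy 1.17.1 were used.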

Additional observations from a re-analysis of the deposited data

How the results depend on the processing

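Of 68 values recomputed, 60 stayed within the main value's Wilson interval (shares), kept their sign (differences between classes) or stayed within 1.5 times (densities, positions and widths), 7 moved further and 1 reversed. When a gene needed at least 3 peaks, the share was 48.1% for all members, 48.6% for DEAD box and 56.7% for nuclear genes. With all peaks, the median density among genes with a peak was 0.252 per kb for all members, against 0.176 for all protein-coding genes. When narrow peaks (under 196 bases) were left out, it was 0.130 per kb for all members, against 0.132 for all protein-coding genes. In the same setting it was 0.227 for DEAD and 0.0581 for DEAH box genes, and the DEAD minus DEAH difference in share was -3.24 points. Comparing the first and last 10% of the gene body gave 6.04 points. The cause of these shifts was not tested, beyond the fewer peaks or genes that each setting keeps. Nuclear minus cytoplasmic ranged from 25.9 to 47.6 points. Leaving out Ddx4, Ddx25 and Ddx3y, and pooling all peaks for position, were chosen after seeing the data. No paired analysis was possible because the list holds no values per sample, and no replicate could be left out for the same reason. Depth behind the peaks is unknown.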
